A study of Mus musculus with 4 samples.

Results

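Genes that attach sulfate to glycans, or that make the sulfate donor, were examined in RAW264.7 cells, an established mouse macrophage-like tumour line, after treatment with 1,5-anhydroglucitol (1,5-AG), a polyol that lacks one hydroxyl group of glucose. The set was given by name: the Golgi sulfotransferase genes Chst1, Chst11, Chst12, Chst14, Chst15, Ndst1, Ndst2 and Hs6st1, and the PAPS synthase genes Papss1 and Papss2. Of these 10 genes 9 had a row among the 21523 genes of the deposited table, and Chst15 was not analysed here. Both groups were the same line grown in DMEM with serum and antibiotics. The control group held 2 libraries from cells whose treatment is labelled as none, and the 1,5-AG group held 2 libraries from cells given 0.5 mM 1,5-AG for 24 h. The labels name no vehicle and no culture time for the control cells. They also do not say that the replicates were separate cultures, so the spread between replicates may be technical.

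Sulfated glycans are made in the Golgi. The donor of every transfer is PAPS (3'-phosphoadenosine 5'-phosphosulfate), which the PAPS synthases build in the cytosol and nucleus from ATP and inorganic sulfate, and which Slc35b2 and Slc35b3 carry into the Golgi. Each sulfotransferase then places sulfate at a defined position of keratan, chondroitin, dermatan or heparan sulfate. Macrophages carry these chains on syndecans, CD44 and serglycin, where the pattern of sulfate helps to set the binding of chemokines, growth factors and lipoproteins.

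The genes were selected on their FPKM in 1,5-AG against control, since that contrast was known when they were proposed. Their values in that contrast are therefore a description, and no p-value is given for them. The values are FPKM, fragments scaled to the exon length of the gene and to the fragments of the library. That length counts all annotated exons of a gene, which can exceed the transcript that is made. It was 5542 bases for Hs6st1, whose longest coding transcript has 3719, and 2680 by both counts for Chst1. Levels, shares and orders across genes are therefore approximate, while the groups can be compared within a gene. Differences are given as log2 fold changes, 1,5-AG minus control, on log2(FPKM + 1), with the standard error (SE) of a limma fit over all genes. SDs are over n = 2 libraries per group throughout.

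The libraries held 14616556 to 16228674 fragments by the depth recovered from the values, and no pair of replicates agreed within counting error (chi-square divided by degrees of freedom 3.12 for the controls and 2.34 for 1,5-AG). The macrophage label was matched by 7 of 8 listed markers with a row, whose summed level was 5334 to 5481 FPKM in control and 3863 to 3958 FPKM with 1,5-AG. Most of that sum was Lyz2, the macrophage lysozyme gene, and Mertk was not analysed here. By the call rule given below 1 of these 7 genes was called lower, Lyz2, and 0 higher, against 0.648% and 0.809% of all tested genes. In 4 of the 7 both 1,5-AG libraries lay below both controls and in 0 above, against 25.4% and 24.2% of all tested genes. The fold changes were 2 positive and 5 negative. Lists of markers for mast cells, lymphocytes (2 lists), fibroblasts, and epithelium with liver summed to at most 0.213 FPKM per list in any library. In bulk RNA a lower FPKM can mean a smaller share of cells that express the gene or less of its RNA per cell, and these cannot be told apart.

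Chst1 was the member with the large difference. It encodes a Golgi enzyme that places sulfate on carbon 6 of galactose in keratan sulfate and related chains. Its level was 3.08 and 3.22 FPKM in the control libraries and 10.95 and 10.84 FPKM in the 1,5-AG libraries, resting on 125, 140, 429 and 439 fragments. The 1,5-AG libraries lay well above both control libraries, and the replicates of each group lay close together. The group means were 3.15 ± 0.101 FPKM in control and 10.9 ± 0.0798 FPKM with 1,5-AG, a ratio of 3.46. Set library against library, the ratio was 3.37 at its lowest and 3.56 at its highest. The log2 fold change was 1.52 (SE 0.06), the 9th highest among 11119 tested genes. The gene (ENSMUSG00000027221) lies on the plus strand of chromosome 2 from 92599707 to 92615250 (mm10, GENCODE M21), with 2680 bases of exon.

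**Figure D1:**
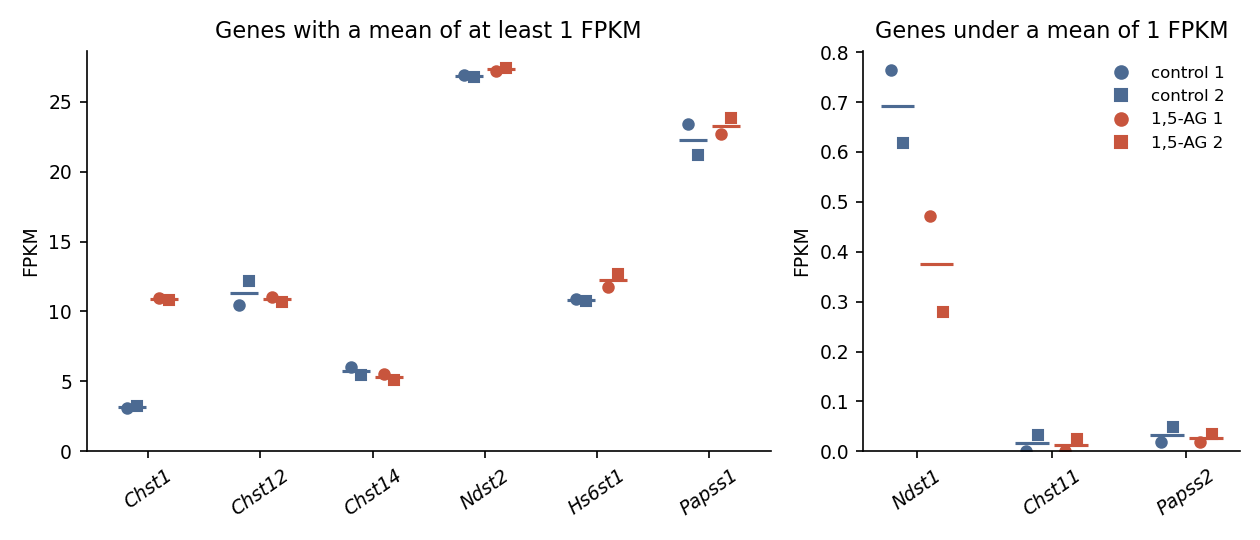
FPKM of the 9 genes in each library, control in blue and 1,5-AG in red, with circles for replicate 1, squares for replicate 2 and a line at each group mean. Chst1 is near 3.15 FPKM in control and near 10.9 FPKM with 1,5-AG, while the other 5 genes of the left panel lie at similar levels in both groups and Chst11 and Papss2 lie near 0.

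Sequence upstream of the start is shown for Chst1, the member that changed most, and for 3 members at similar or higher levels that changed little: Chst12 (a chondroitin sulfotransferase), Hs6st1 (a heparan sulfate sulfotransferase) and Papss1 (the expressed PAPS synthase). The 250 bases before the RefSeq start (GRCm38.p6, plus strand for all 4) were searched on both strands for the letters TATAAA of the TATA box, the box named CCAAT, the letters GGGCGG of the GC box, GAGGAA as a core of PU.1 sites, TGANTCA as the AP-1 motif and CACGTG as an E-box. No pair of these motifs overlapped in the 4 windows. Capitals mark the matches.
Chst1, chr2:92600867-92601116: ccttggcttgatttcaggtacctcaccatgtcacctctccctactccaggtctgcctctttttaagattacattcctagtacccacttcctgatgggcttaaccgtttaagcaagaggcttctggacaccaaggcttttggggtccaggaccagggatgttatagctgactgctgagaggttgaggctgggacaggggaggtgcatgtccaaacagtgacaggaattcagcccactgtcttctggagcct
Chst12, chr5:140505359-140505608: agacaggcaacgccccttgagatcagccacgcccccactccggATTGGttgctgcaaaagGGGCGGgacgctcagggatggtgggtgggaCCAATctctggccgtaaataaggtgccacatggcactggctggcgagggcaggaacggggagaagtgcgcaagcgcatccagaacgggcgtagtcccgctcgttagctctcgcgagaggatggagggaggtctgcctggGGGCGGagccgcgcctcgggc
Hs6st1, chr1:36068150-36068399: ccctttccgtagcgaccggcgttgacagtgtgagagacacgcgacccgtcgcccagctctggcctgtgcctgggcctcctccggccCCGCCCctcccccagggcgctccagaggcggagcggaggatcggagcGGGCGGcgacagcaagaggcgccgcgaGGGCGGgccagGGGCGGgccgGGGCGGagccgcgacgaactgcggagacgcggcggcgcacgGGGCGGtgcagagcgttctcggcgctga
Papss1, chr3:131564518-131564767: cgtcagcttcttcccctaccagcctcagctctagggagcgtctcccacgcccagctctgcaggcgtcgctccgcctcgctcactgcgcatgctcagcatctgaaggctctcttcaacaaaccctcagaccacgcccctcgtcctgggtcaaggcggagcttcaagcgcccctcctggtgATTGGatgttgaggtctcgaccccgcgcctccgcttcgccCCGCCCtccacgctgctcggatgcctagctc
Papss1 has a further RefSeq window downstream of this one, which is not shown.

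The Chst1 window held no match to any of the 6 motifs, 1 CpG and 51.6% G and C. The first windows of the other 7 genes with an entry (Chst11, Chst12, Chst14, Ndst2, Hs6st1, Papss1 and Papss2) each held at least 1 GC box, with 14 to 37 CpG and 61.2% to 76.4% G and C. The further windows of Papss1 and Papss2 held no GC box. That of Papss1 had no match to any of the 6 motifs, 5 CpG and 48.8% G and C. That of Papss2 had 2 CCAAT boxes, 1 PU.1 core, 1 CpG and 43.2% G and C. Over all 32851 windows of that length 32.7% held a GC box, 33.8% a CCAAT box, 23.3% the PU.1 core, 12.4% the TATA box, 6.75% the AP-1 letters and 6.02% the E-box, with a median of 6 CpG and 52.4% G and C. By its share of G and C the Chst1 window was thus near the middle of all windows, but its 1 CpG was under the median of 6. The first windows of the other 7 genes were on the GC-rich side. The RefSeq start of Chst1 lies inside the GENCODE gene, whose first base is 92599707, so the window shown is not the sequence before the GENCODE start. A match is a run of letters and not a site of binding.

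Among the members that sulfate carbon 4 of N-acetylgalactosamine, Chst12 and Chst14 were expressed and Chst11 was near 0. Chst12, one of the chondroitin 4-O-sulfotransferases, had 10.5 and 12.2 FPKM in control and 11.1 and 10.7 FPKM with 1,5-AG, and both 1,5-AG libraries lay between the control libraries. Its log2 fold change was -0.05 (SE 0.08). Chst14, which acts on dermatan sulfate, had 5.995 and 5.42 FPKM in control and 5.50 and 5.13 FPKM with 1,5-AG. These ranges overlapped as well, and the log2 fold change was -0.09 (SE 0.07). Chst11, also a chondroitin 4-O-sulfotransferase, had 0 and 3 fragments in the control libraries and 0 and 2 with 1,5-AG. Both groups were at or under 3 fragments per library, so no fold is given. Chst12 made up 63.7% and 69.1% of the summed FPKM of Chst11, Chst12 and Chst14 in control, and 66.8% and 67.5% with 1,5-AG.

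In heparan sulfate synthesis the NDST enzymes remove acetyl groups from N-acetylglucosamine and put sulfate in their place, which opens the chain to later steps such as 6-O-sulfation by Hs6st1. Ndst2, known for its role in the heparin of mast cells, had the highest level of the set, with 26.9 and 26.8 FPKM in control and 27.2 and 27.4 FPKM with 1,5-AG. The groups did not overlap, but the difference was 1.72% of the control mean (log2 fold change 0.02, SE 0.04). Hs6st1 had 10.9 and 10.7 FPKM in control and 11.8 and 12.7 FPKM with 1,5-AG, with both 1,5-AG libraries above both controls and a difference of 12.9% (log2 fold change 0.16, SE 0.06). Gm37335 on the opposite strand shares 447 bases with the exons of Hs6st1, 8.07% of their length. The library kit was stranded, but no source used here gives the strand setting of the counting. Gm37335 had no row in the deposited table. Its reads may be included in Hs6st1, which was not tested.

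Ndst1, the broadly expressed member of the same enzyme pair, was weak in these cells. It had 0.765 and 0.618 FPKM in control and 0.471 and 0.280 FPKM with 1,5-AG, from 96, 83, 57 and 35 fragments. Both 1,5-AG libraries lay below both controls, and the 1,5-AG mean was 0.543 of the control mean. Its mean of 0.533 FPKM was under the minimum of 1 FPKM for the test, so it was not among the tested genes. When genes with a mean of at least 10 fragments were fitted with limma's voom on recovered fragments, an alternative chosen after seeing the data, its log2 fold change was -0.91 (SE 0.25) and it met the call rule. In that fit 7.45% of genes were called, 4.21% lower, and nothing is read from this call, since the same contrast chose the gene. With limma on log2(FPKM + 1) at a minimum mean of 0.5 FPKM it had -0.30 (SE 0.16) and was not called. Ndst2 supplied 97.2% and 97.7% of the summed FPKM of both genes in control and 98.3% and 99.0% with 1,5-AG.

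PAPS synthesis rested on 1 of its 2 genes. Papss1 had 23.4 and 21.2 FPKM in control and 22.7 and 23.8 FPKM with 1,5-AG, with overlapping groups (log2 fold change 0.06, SE 0.06). Papss2, the paralog best known from cartilage and liver, was covered by 1 and 3 fragments in the controls, and by 1 and 2 in the treated libraries, at or under 3 fragments in each library, so no fold is given. Papss1 made up 99.8% to 99.9% of the summed FPKM of both genes in the 4 libraries. The level of Chst1 was 0.132 and 0.152 of that of Papss1 in control and 0.483 and 0.455 with 1,5-AG.

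By the call rule (limma, Benjamini-Hochberg adjusted p under 0.05 over all tested genes), 1 of the 6 tested members was called higher, Chst1, and 0 were called lower. Over all tested genes 0.809% were called higher and 0.648% lower, 1.46% in either direction. Nothing is read from this count, since the contrast chose the members. The groups did not overlap, with 1,5-AG higher, for Chst1, Ndst2 and Hs6st1, which held for 24.2% of tested genes in that direction, 25.4% in the other and 49.6% in either. Among the 5 tested members other than Chst1 the ratio of any 1,5-AG library to any control library ran from 0.856 for Chst14 to 1.18 for Hs6st1. The call of Chst1 was lost without control replicate 2 (log2 fold change 1.55), without 1,5-AG replicate 1 (1.51) and without a filter on low values (1.52). In those fits 2, 2 and 0 genes were called among all tested.

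**Figure D2:**
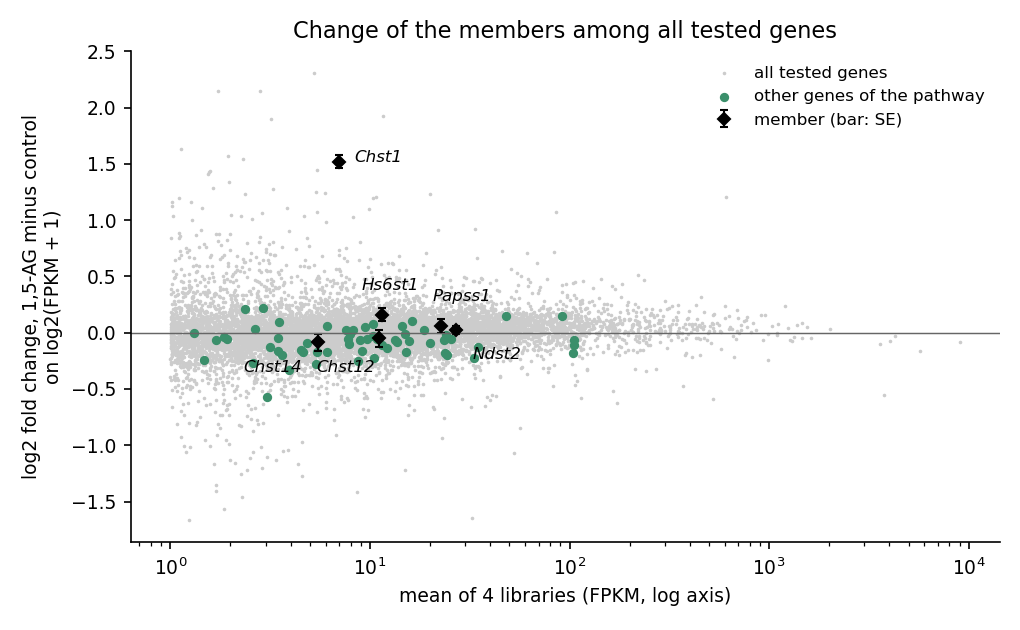
Log2 fold change on log2(FPKM + 1) against the mean of 4 libraries in FPKM (log axis), with all 11119 tested genes in grey, the 60 tested genes of the other pathway lists in green and the 6 tested members as black diamonds with SE bars. Chst1 stands at 1.52, and the other 5 members lie between -0.09 and 0.16.

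Summed, the 7 Golgi members had 58.2 and 59.0 FPKM in control and 67.0 and 67.1 FPKM with 1,5-AG. Without Chst1 the sums were 55.1 and 55.8 FPKM in control and 56.0 and 56.3 FPKM with 1,5-AG, so most of the added level was that of Chst1. Its share of the sum was 5.29% and 5.46% in control and 16.4% and 16.2% with 1,5-AG. The ratio of Chst1 to Chst12 was 0.293 and 0.264 in control and 0.990 and 1.01 with 1,5-AG, that is, the chondroitin enzyme gene was the more abundant in control and the levels were alike after treatment.

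Set among all 16 Golgi sulfotransferase genes with a row, the members included the gene with the highest FPKM. The order depends on the exon length used for each gene. In control the order was Ndst2, then the tyrosylprotein sulfotransferase genes Tpst1 (18.4 ± 0.334 FPKM) and Tpst2 (14.1 ± 1.79 FPKM), then Chst12, Hs6st1 and Hs2st1 (10.5 ± 0.0666 FPKM), the uronyl 2-O-sulfotransferase gene of heparan sulfate. The range of Chst12 overlapped those of Hs6st1 and Hs2st1. Chst14 followed, then Chst10 (4.81 ± 0.391 FPKM), which sulfates the HNK-1 glycan, and Chst3 (4.48 ± 0.111 FPKM), a chondroitin 6-O-sulfotransferase, which overlapped each other. Chst1 was the 10th, above Hs3st3b1 (2.63 ± 0.278 FPKM) and Ndst1. With 1,5-AG Chst1 was the 5th, overlapping Chst12 and lying below Hs6st1. The other 4 genes, Chst13, Ust, Chst11 and Ndst3, were at most 0.0887 FPKM in each library.

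**Figure D3:**
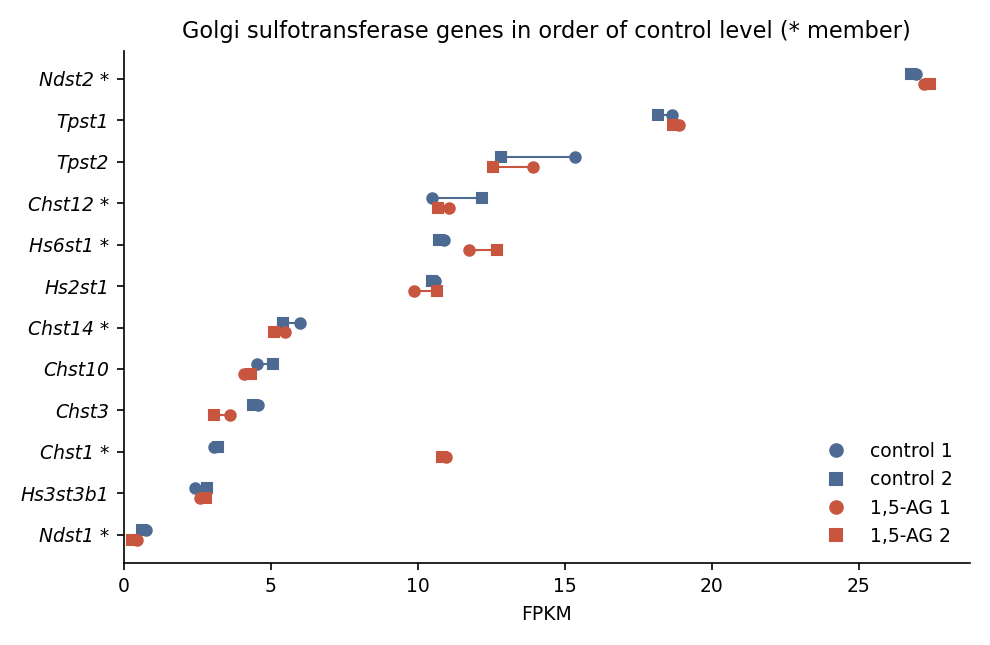
FPKM of the 12 most abundant Golgi sulfotransferase genes in order of their control mean, with both libraries of each group joined by a line, control in blue and 1,5-AG in red, and members starred. Chst1 goes from the 10th place in control to the 5th with 1,5-AG, beside Chst12.

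The gene models of the members differ in ways the choice did not use. In the longest coding transcript of GENCODE M21, Chst1, Chst12 and Chst14 had their whole coding sequence in 1 exon (1233, 1257 and 1128 bases), Chst11 and Hs6st1 had 3 and 2 coding exons, and Ndst1, Ndst2, Papss1 and Papss2 had 14, 13, 12 and 13. Chst1, whose groups lay far apart, thus shares a single coding exon with Chst12 and Chst14, whose groups overlapped. Reads shared with other genes could blur a value. Of the 50-base words of each member's transcripts, 0.419% for Chst1, 6.37% for Hs6st1 (in Lman2l and Gm37335) and 1.16% for Papss1 also occurred in transcripts of other genes, and 0 for the other 6 members, so no paralog among the members shared a word with another. For Chst1 no other annotated gene overlapped its span.

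The genes whose pattern over the 4 libraries was most like that of Chst1 were taken by the smallest root mean square difference of log2(FPKM + 1), each gene centred on its own mean, among tested protein-coding genes. These were Car2, a carbonic anhydrase gene (0.159), Ptgs1, the constitutive cyclooxygenase gene (0.162), and Dmpk, a kinase gene (0.172). Car2 went from 368 ± 0.772 to 849 ± 12.8 FPKM, Ptgs1 from 6.10 ± 0.0144 to 15.4 ± 0.755 FPKM and Dmpk from 5.90 ± 0.377 to 14.8 ± 0.441 FPKM. The ratios of the group means were 2.31, 2.52 and 2.51, against 3.46 for Chst1. The added 1 FPKM shrinks the difference of a low gene such as Chst1 more than that of Car2. The measure covers 4 libraries in 2 groups, so it mostly ranks genes by the size of the group difference.

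The rest of the sulfation pathway was described with 6 lists of genes that are not members. Of their 60 tested genes 0 passed the limma test in either direction, while 18 had an unadjusted p under 0.05, against 2025 of all 11119 tested genes. Voom on recovered fragments called 9 of the 60, 1 higher (Srgn) and 8 lower (Cd44, Cd74, Chpf, Chst3, Dse and Ids among them), where it called 8.28% of all genes, 3.64% higher and 4.64% lower. The median log2 fold change over all tested genes was -0.00254.

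Of the other Golgi sulfotransferase genes 9 of 28 had a row and 6 were tested, 2 with a positive and 4 with a negative fold change and a median of -0.06. Chst3 had 4.56 and 4.40 FPKM in control and 3.62 and 3.08 FPKM with 1,5-AG, both below both controls (log2 fold change -0.34, SE 0.09, limma adjusted p = 0.152). Chst10 had 4.53 and 5.08 FPKM in control and 4.11 and 4.34 FPKM with 1,5-AG (-0.15, SE 0.08, limma adjusted p = 0.392). Chst3 was called by voom (log2 fold change -0.42, adjusted p = 0.00951), and Chst10 was not.

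Genes that take up sulfate, carry PAPS or remove its product PAP numbered 6 tested of 10 listed, with 1 positive and 5 negative fold changes and a median of -0.06. Slc26a11, a sulfate transporter, had 1.83 and 1.55 FPKM in control and 1.25 and 1.28 FPKM with 1,5-AG (log2 fold change -0.25, SE 0.12, limma adjusted p = 0.363). Bpnt1, a phosphatase that clears PAP in the cytosol, had 21.1 and 20.1 FPKM in control and 19.6 and 19.1 FPKM with 1,5-AG (-0.09, SE 0.05, limma adjusted p = 0.412). The Golgi PAPS carrier Slc35b2 had a log2 fold change of -0.07, and Papss1 stood at 0.980 and 0.880 of its level in control and at 0.948 and 1.09 with 1,5-AG.

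Chain assembly had 21 tested genes of 29, with 8 positive and 13 negative fold changes and a median of -0.06. Chpf, a partner of the enzymes that extend chondroitin, had 4.17 and 3.48 FPKM in control and 2.22 and 2.28 FPKM with 1,5-AG. Both 1,5-AG libraries lay clearly below both controls (log2 fold change -0.57, SE 0.10, limma adjusted p = 0.0799, voom adjusted p = 0.00196). Dse, which turns glucuronic into iduronic acid and so makes dermatan sulfate, had 11.5 and 11.4 FPKM in control and 9.58 and 9.66 FPKM with 1,5-AG (-0.23, SE 0.05, limma adjusted p = 0.1003). The chains of dermatan sulfate made with Dse are the substrate of Chst14, whose own fold change was -0.09.

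Among genes that remove sulfate or break the chains down, 18 of 22 were tested, with 2 positive and 16 negative fold changes and a median of -0.10. In 10 of the 18 both 1,5-AG libraries lay below both controls, against 25.4% of all tested genes.

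Proteoglycan core proteins had 9 tested genes of 27, with 2 positive and 7 negative fold changes and a median of -0.13. The groups did not overlap in any of the 9, 2 of them higher and 7 lower with 1,5-AG, against 24.2% of all tested genes higher, 25.4% lower and 49.6% in either direction. Srgn, the serglycin of secretory granules, had 85.7 and 87.8 FPKM in control and 96.9 and 95.4 FPKM with 1,5-AG (log2 fold change 0.15, SE 0.04, limma adjusted p = 0.132). Cd44, the hyaluronan receptor that can carry chondroitin and heparan sulfate, had 25.5 and 25.2 FPKM in control and 21.8 and 22.7 FPKM with 1,5-AG (-0.18, SE 0.04, limma adjusted p = 0.129). Of 11 cytosolic sulfotransferase genes, which use PAPS on small molecules, 3 had a row and 0 reached the minimum for the test.

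**Figure D4:**
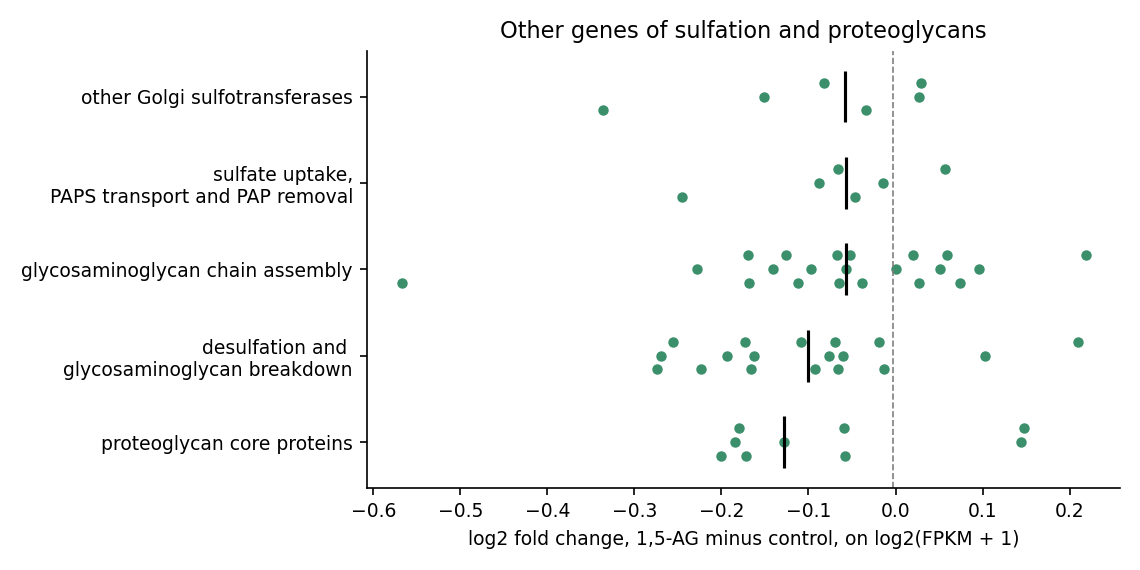
Log2 fold change on log2(FPKM + 1), 1,5-AG minus control, of each tested gene of 5 pathway lists (points), with the median of each list as a black line and the median of all tested genes as a dashed line. The medians run from -0.13 for core proteins to -0.06, and Chpf lies farthest to the left at -0.57.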

How the data were processed

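Messenger RNA was sequenced from 4 libraries of RAW264.7 cells with a stranded mRNA kit, per the labels' protocols. The authors deposited FPKM, 1 column per library; Trimmomatic, HISAT2, Cufflinks, HTSeq and the build mm10 are named in the submitters' processing notes, without versions or an annotation release. Of 21523 identifiers 21508 matched GENCODE M21, which gave symbols and exon lengths. FPKM times exon length gave whole fragments in all 4 libraries for 99.4% of genes (tolerance 0.02 fragments), and 3 fragments in 2 kb of exon were worth 0.0924 to 0.103 FPKM; this covers counting error only.

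The fit was limma 3.58.1 (R 4.3.3) on log2(FPKM + 1) with a variance trend, for 11119 genes with a mean of at least 1 FPKM, two-sided, with Benjamini-Hochberg adjustment and a threshold of 0.05; it was tested on simulated data. With 2 libraries a group the smallest exact two-sided permutation p is 0.333. The fold changes understate the change of low genes. Alternatives changed the pseudocount, filter, scaling, replicate block, libraries and test (voom on recovered fragments). The members and lists were chosen with earlier results of these data known. Named genes were all members, from each list those past the threshold or else the 2 smallest p, the macrophage markers, and the 3 genes most like Chst1; 2 genes of the breakdown list that this rule chose are not reported here; Slc35b2 and genes given only by level or voom call were named after their values were seen. Upstream sequences are from RefSeq (GRCm38.p6), which gave windows for 8 of the 9 members; Ndst1 had none.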

Additional observations from a re-analysis of the deposited data

How the results depend on the processing

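Genes past the threshold, 162 in all, numbered 160 with a pseudocount of 0.1, 154 with median-ratio scaling, 141 with quantile normalization and 133 at a minimum mean of 0.5 FPKM. They numbered 0 with no filter on low values (2626 at unadjusted p under 0.05), 360 at a minimum mean of 5 FPKM, 312 with the replicate block, 915 with voom and 927 with voom over genes with a mean of at least 10 fragments, and 2 to 10 with 1 library left out. Members past the threshold, 1, were 0 without a filter (2 of 9 at unadjusted p under 0.05, against 2626 of 21501 genes), 2 with voom over genes with a mean of at least 10 fragments, and 0 to 1 with 1 library left out. Without control replicate 2 or without 1,5-AG replicate 1 limma called 0 members, with 1 and 2 of 6 at unadjusted p under 0.05, against 1704 and 1409 of 11119 genes. The contrast chose the members, so their counts are a description and nothing is read from them. Pathway genes past the threshold, 0, were 9 with voom and 9 with voom over genes with a mean of at least 10 fragments; in the other fits they were 0, with 6 to 18 at unadjusted p under 0.05. The replicate block called the same 1 member, but 312 genes in all against 162. The numbers were not taken as pairs, since the correlation across genes between the deviations of libraries with equal numbers was 0.0124. The log2 fold change of Chst1 was 1.76 with a pseudocount of 0.1 and 1.79 with voom. Over the 6 tested members and the 10 pathway genes chosen for naming, 185 refitted values stayed on their side of the threshold or within the replicate SD. Under voom alone 14 values of pathway genes passed, and 5 member values moved by more than that SD. Chst1 and the 10 pathway genes kept their sign. Without control replicate 2 the log2 fold change of Chst12 went from -0.05 to 0.05 and that of Papss1 from 0.06 to -0.01. The settings at 0.5 FPKM and at 10 fragments were chosen after seeing the data, and the cause of the other differences was not tested. In fits with 1 library left out, the lone library of a group borrows its spread from the other group. Depth limited Chst11 and Papss2, at 3 fragments or fewer in each library.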
